A study of Mus musculus with 6 samples.

Results

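The kainate receptor genes *Grik1* to *Grik5* and the genes of their auxiliary proteins, *Neto1* and *Neto2*, were followed in the medial prefrontal cortex (mPFC) of *Shank3* transgenic (TG) and wild-type (WT) mice. These 7 genes were taken by symbol from the 18254 genes of the deposited table, and all 7 were present and passed the filter on low values. The mice were males aged 10 to 12 weeks on a C57BL/6J background, and the WT mice were littermates without the transgene. The TG mice carry an EGFP-*Shank3* transgene, and what drives the transgene is not given in the sources used here. There were 3 RNA-seq libraries of each genotype, numbered 1 to 3, and each library came from 2 mice whose mPFC was pooled, so a replicate is such a pool and not a single animal. The comparison asks whether kainate receptor message differed between mice with and without extra Shank3, a scaffold of the postsynaptic density.

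Kainate receptors are tetrameric cation channels opened by glutamate. The subunits GluK1, GluK2 and GluK3, encoded by *Grik1*, *Grik2* and *Grik3*, bind kainate with lower affinity and can form channels on their own. GluK4 and GluK5, encoded by *Grik4* and *Grik5*, bind kainate with higher affinity and work only together with one of the former. Neto1 and Neto2 are single-pass membrane proteins with CUB domains that associate with the receptor and slow its gating. In the cortex these receptors act on both sides of the synapse, in pyramidal cells and in interneurons.

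The pore loop of the subunits is shown because it is a part they share and because it holds the Q/R codon. In *Grik1* and *Grik2* the adenosine of this codon is known to be edited by ADAR enzymes, which turns a glutamine into an arginine. The coding bases below were read 5′ to 3′ from the GENCODE M21 transcripts (GRCm38), and the capitals mark the Q/R codon.
Grik1 (chr16:87940539-87940565, minus strand, exon 12 of 17): tttggcgttggagctctcatgCAGcaa
Grik2 (chr10:49244326-49244352, minus strand, exon 13 of 17): tttggagttggagctctcatgCAGcaa
Grik3 (chr4:125691186-125691212, plus strand, exon 12 of 16): tttggaatgggctccctgatgCAGcaa
Grik4 (chr9:42547620-42547646, minus strand, exon 16 of 21): tttccggttggaggcttcatgCAGcaa
Grik5 (chr7:25022494-25022520, minus strand, exon 15 of 20): ttccccgtgggtggcttcatgCAGcag
All 5 genes have the same codon, CAG, in the reference. *Grik1* and *Grik2* share 26 of the 27 bases, *Grik4* and *Grik5* share 22, and *Grik3* and *Grik5* share the fewest, 16. The deposited values are sums per gene, so they hold no measure of editing or of splice forms.

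The values are normalized counts, that is, estimated reads per gene divided by a size factor for each library, and each library summed to between 28363967 and 29447717 of them. *Shank3* itself had 17470, 19004 and 16310 normalized counts in TG-1, TG-2 and TG-3 and 8374, 8173 and 6791 in WT-1, WT-2 and WT-3, so every TG library was above every WT library. TG exceeded WT by 1.18 on the log2 scale (standard error 0.10, limma adjusted p = 0.0643), and blocking on the replicate number gave an adjusted p of 0.000437. Libraries stood apart in several ways. TG-1 had the lowest sum of deep-layer markers and the highest of upper-layer markers, as given for *Grik3* below. Both libraries numbered 3 were unlike the other 4, by 2344 of 16714 tested genes (14%, limma adjusted p below 0.05 for a term that marks number 3), a comparison made after the data had been seen. TG-2 held the most olfactory bulb message, with 720 normalized counts of *Cdhr1* and 149 of *Eomes*, although the dissection discarded the front of the brain with the olfactory bulb. WT-3 came next, with 100.2 and 30.6, against at most 57.9 and 9.65 in the other 4 libraries. The mean log2 value of the 7 olfactory bulb markers was 8.40 in TG-2, 6.97 in WT-3 and 5.92 to 6.15 in the other 4. Of the 7 olfactory bulb markers, 7 were higher in TG by the mean log2 value and 0 reached a limma p below 0.05 before adjustment. Their summed level was 2139 to 3768 in TG and 2141 to 2689 in WT, and *Tbx21* was at or under 3 normalized counts in some libraries. The 7 excitatory neuron markers summed to 95406 to 134384 normalized counts in TG and 93193 to 130908 in WT, with none at 0, 4 of 7 lower in TG and a median log2 fold change of -0.01.

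By the test, 0 of the 7 genes changed with the genotype after adjustment (limma, adjusted p below 0.05), as for 0 of 16714 genes tested (0%). Before adjustment it was again 0 of 7 at a limma p below 0.05 (background 2.01%, of which 1.08% lower and 0.933% higher in TG), and 1 of 7, *Grik1*, with the empirical null described below (background 7.27%), or 0 of 7 after adjustment (background 0.156%). When the replicate number was blocked it was 0 of 7 after adjustment (background 0.00598%, which is *Shank3* alone) and 0 of 7 before it (background 4.98%). Separation of the 3 TG from the 3 WT libraries without overlap was seen for 0 of the 7 genes (background 6.02%). The log2 fold changes lay between -0.21 for *Grik1* and 0.08 for *Grik4*, with 4 genes lower in TG (background 51.4%) and 3 higher. Their median was -0.03, beside a median of -0.00368 over all genes tested. Without TG-2 the 7 log2 fold changes lay between -0.30 (*Grik1*) and 0.09 (*Grik4*), and without TG-3 and WT-3 between -0.11 (*Grik1*) and 0.10 (*Grik4*). A p-value over the threshold does not show equal levels, so the 95% confidence interval of each difference is given below. In bulk tissue, fewer cells of a type and less RNA per cell cannot be told apart.

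**Figure D1:**
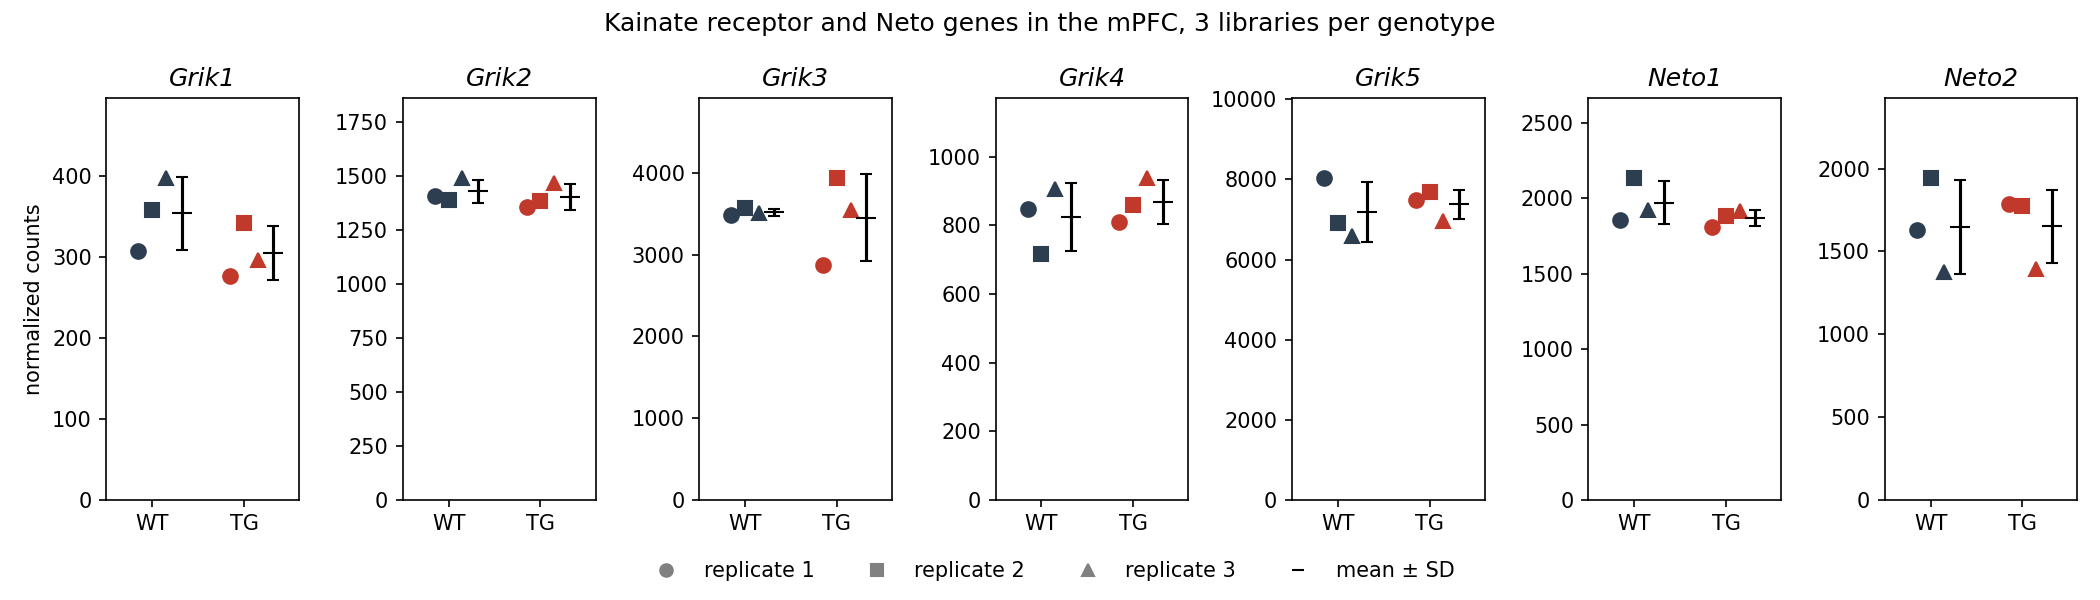
Normalized counts of each gene (vertical axes, from 0) in WT and TG, with 1 symbol per library, its shape giving the replicate number, and a bar for the mean ± SD of 3 libraries. The groups overlap for all 7 genes, and the triangles of *Neto2* (TG-3 and WT-3, 1397 and 1376) lie below its other symbols in both genotypes.

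Of the genes for the lower-affinity subunits, *Grik1* (ENSMUSG00000022935, GRCm38 chromosome 16 from 87895900 to 88290265) had the fewest normalized counts and the largest difference. GluK1 is found in many cortical interneurons. *Grik1* had 276, 341 and 296 normalized counts in TG-1, TG-2 and TG-3, and 307, 358 and 397 in WT-1, WT-2 and WT-3. The TG value was the lower one at each replicate number, but the groups overlapped, since TG-2 exceeded WT-1. The means were 305 ± 33.2 in TG and 354 ± 45.0 in WT (SD, n = 3), a log2 fold change of -0.21 with a 95% confidence interval from -0.52 to 0.10. By limma the p-value of *Grik1* was 0.151, or 0.0695 when blocked, and after adjustment 1 and 0.996. With an empirical null, in which z-scores are divided by their width over all genes, it was 0.0494 before and 0.685 after adjustment of the limma fit. Without TG-3 and WT-3 together the log2 fold change of *Grik1* was -0.11, and without WT-3 alone it was -0.13. Without TG-1 it was -0.15, and without WT-1 it was -0.31. Without TG-2, the library with the most olfactory bulb message, it was -0.30. WT-3 held the next most of that message. The 8 inhibitory neuron markers in the table summed to 21025 to 21294 normalized counts in TG and 20606 to 21279 in WT, with 5 of 8 genes lower in TG, a median log2 fold change of -0.05 and 0 of 8 at a limma p below 0.05 before adjustment. Their part in the values of *Grik1* was not tested.

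*Grik2* (ENSMUSG00000056073, chromosome 10 from 49094833 to 49788766) encodes GluK2, the most studied subunit of the forebrain, whose C-terminal end binds PDZ domains of postsynaptic scaffolds. Its normalized counts were 1356, 1382 and 1468 in TG-1 to TG-3 and 1406, 1389 and 1488 in WT-1 to WT-3. It was the steadiest of the 7 genes, with a standard deviation of 0.056 log2 units around the genotype means, against a median of 0.167 over all genes tested. The log2 fold change was -0.03 (95% confidence interval -0.20 to 0.15), and at numbers 1, 2 and 3 TG minus WT was -0.05, -0.00727 and -0.02 log2 units. The log2 fold change of *Grik2* was -0.00247 without TG-1 and turned to 0.00386 without WT-3.

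*Grik3* (ENSMUSG00000001985, chromosome 4 from 125490700 to 125714173) encodes GluK3, which needs more glutamate to open than the other subunits. It had 3483, 3567 and 3506 normalized counts in WT-1 to WT-3, within a narrow range, and 2878, 3935 and 3550 in TG-1 to TG-3. The TG libraries thus held both the lowest and the highest value, and the standard deviation was 535 in TG and 43.1 in WT. The log2 fold change was -0.04 (95% confidence interval -0.30 to 0.23). It was 0.09 without TG-1 and -0.14 without TG-2. TG-2 was the library with the most olfactory bulb message. TG-1 had the lowest sum of 8 deep-layer markers and the highest sum of 6 upper-layer markers. The deep-layer sum was 4141 in TG-1, up to 5603 in TG and 4974 to 6597 in WT, with 5 of 8 genes lower in TG, 0 at a limma p below 0.05 before adjustment and none at 0. The upper-layer sum was 27063 in TG-1, 21592 and 23332 in TG-2 and TG-3, and 21239 to 23291 in WT. Of these 6 genes 1 was lower in TG, with 0 at a limma p below 0.05 before adjustment. The part of any of these in the values of *Grik3* was not tested.

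Of the genes for the higher-affinity subunits, *Grik4* (ENSMUSG00000032017, chromosome 9 from 42518135 to 42944493) encodes GluK4. Its values were 811, 858 and 937 normalized counts in TG-1 to TG-3 and 849, 716 and 908 in WT-1 to WT-3. WT-2 was the lowest library and TG-3 the highest. The log2 fold change of 0.08 (95% confidence interval -0.18 to 0.34) was the largest positive one of the 7 genes and turned to -0.02 without WT-2. *Grik5* (ENSMUSG00000003378, chromosome 7 from 25009849 to 25072346), which encodes GluK5, the usual partner of GluK2, had the most normalized counts of the 7 genes. They were 7475, 7685 and 6964 in TG-1 to TG-3 and 8025, 6914 and 6598 in WT-1 to WT-3, so the WT libraries held both the highest and the lowest value. Its log2 fold change was 0.04 (95% confidence interval -0.17 to 0.25), and it was -0.02 without WT-3.

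**Figure D2:**
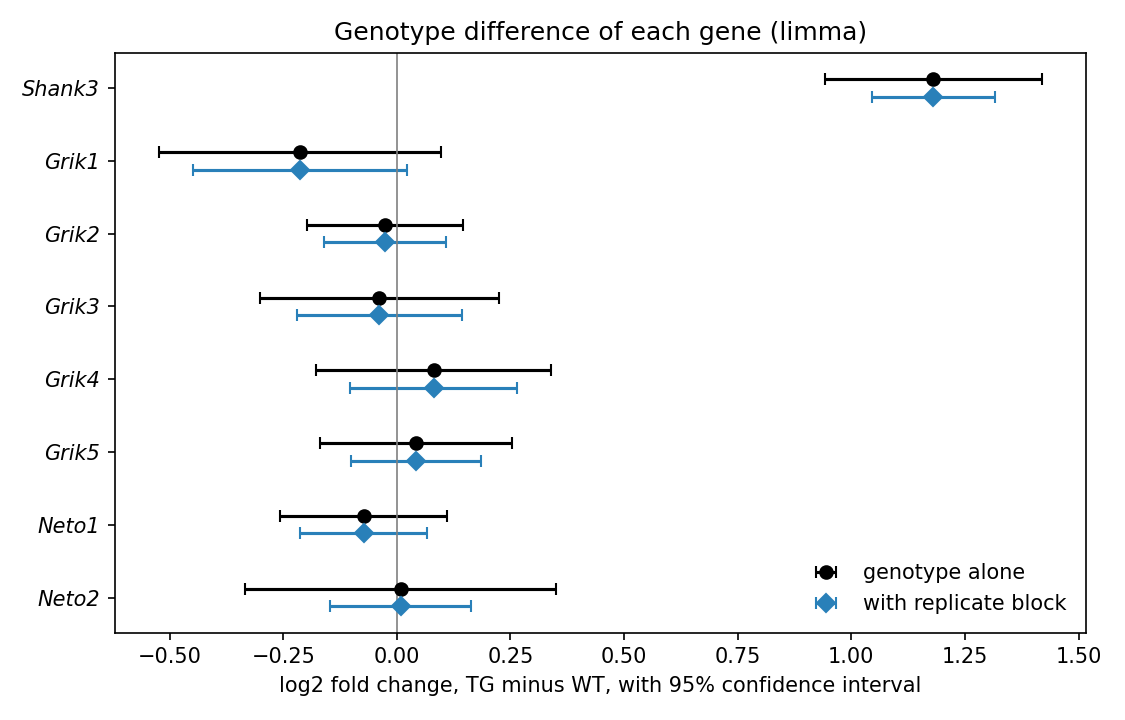
Log2 fold change of TG over WT (horizontal axis) with its 95% confidence interval from limma, for *Shank3* and the 7 genes, with the genotype alone (black circles) or blocked by replicate number (blue diamonds). The interval of *Shank3* lies between 0.94 and 1.42, and the intervals of all 7 genes hold 0 in both fits.

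The auxiliary genes differed in how steady they were. *Neto1* (ENSMUSG00000050321, chromosome 18 from 86394952 to 86506718) was at 1811, 1884 and 1914 normalized counts in TG-1 to TG-3 and 1856, 2132 and 1924 in WT-1 to WT-3. TG was the lower one at each replicate number, with log2 differences of -0.04, -0.18 and -0.00732 at numbers 1, 2 and 3. The log2 fold change of -0.07 (95% confidence interval -0.26 to 0.11) was -0.02 without WT-2. *Neto2* (ENSMUSG00000036902, chromosome 8 from 85636588 to 85700924) was at 1784, 1773 and 1397 normalized counts in TG-1 to TG-3 and 1627, 1941 and 1376 in WT-1 to WT-3. Its log2 fold change was 0.01 (95% confidence interval -0.33 to 0.35), and its standard deviation around the genotype means, 0.226 log2 units, was the largest of the 7. With each library left out in turn its log2 fold change lay between -0.11 and 0.13, so no direction can be given for *Neto2*.

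The spread of *Neto2* followed the replicate number. In TG-3 and WT-3 it was lower than in the other 4 libraries by a log2 difference of -0.36 (standard error 0.08, limma adjusted p = 0.0209 for the term that marks number 3). It was 1 of 7 genes past the threshold, beside 14% of all genes tested, so this share is near the background. *Grik5* had a log2 difference of -0.15 (adjusted p = 0.185) and *Grik4* of 0.19 (adjusted p = 0.172) in the same limma test. For *Grik1*, *Grik2*, *Grik3* and *Neto1* the log2 differences lay between 0.00158 and 0.10. The excitatory neuron markers moved with the same libraries, at a sum of 134384 normalized counts in TG-3 and 130908 in WT-3 against 93193 to 103104 in the other 4, and their part in the values of *Neto2* was not tested. What set the libraries numbered 3 apart is not given in the labels, and the same number occurs once in each genotype.

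**Figure D3:**
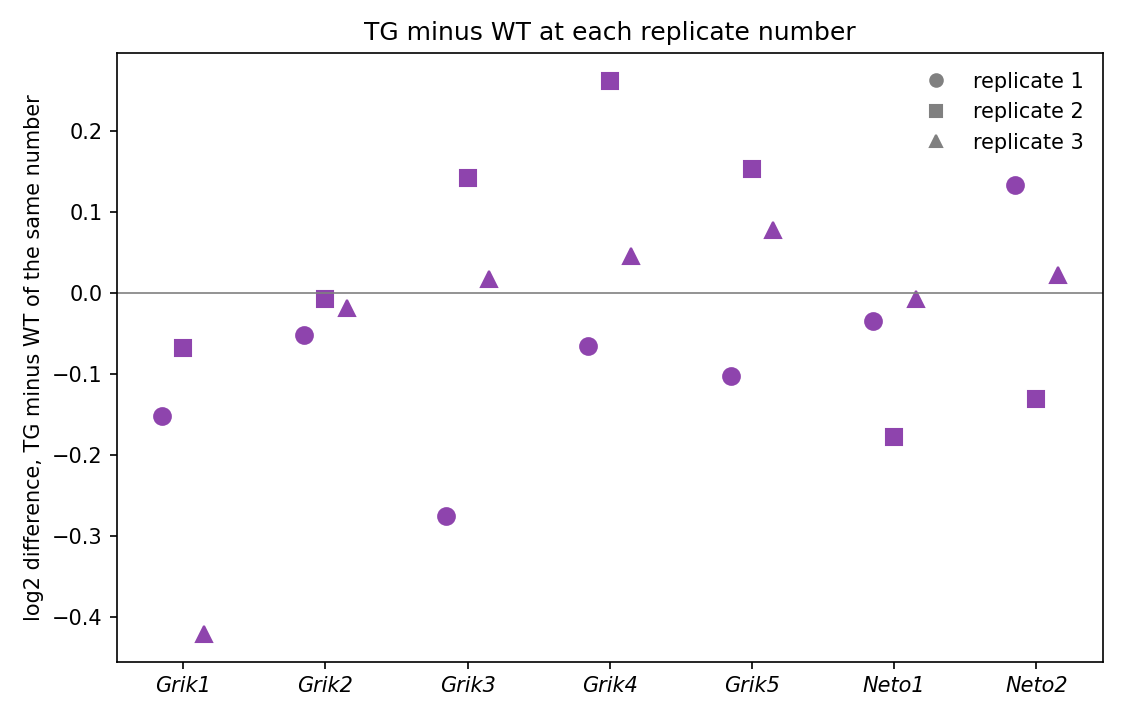
Log2 difference between the TG and the WT library of the same replicate number (vertical axis), with 1 symbol per number for each gene. The 3 symbols of *Grik1*, *Grik2* and *Neto1* lie below 0, and those of the other 4 genes lie on both sides of it.

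At each replicate number TG was the lower one for 3 of the 7 genes, beside 13.2% of all genes tested, and the higher one for 0 of 7, beside 11.6%. The median of the 7 differences was -0.07 log2 units at number 1, -0.00727 at number 2 and 0.02 at number 3. The differences of *Grik1* were -0.15, -0.07 and -0.42 at numbers 1, 2 and 3, so the largest came from the libraries numbered 3. When the number was blocked the intervals were narrower, from -0.15 to 0.16 for *Neto2* and from -0.45 to 0.02 for *Grik1*, and each of the 7 held 0. The block takes libraries of the same number as pairs, which the data bear out clearly only for number 3.

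Levels were compared between genes per length, as normalized counts per kilobase (kb) of all annotated exons. *Grik5* was the highest in each of the 6 libraries, with 1427 ± 71.8 in TG and 1389 ± 145 in WT (SD, n = 3). *Grik3* came next in each library, with 321 to 439 over the 6 libraries. *Neto2*, at 224 to 317 over the 6 libraries, and *Neto1*, at 217 to 255, overlapped, and *Neto1* was the higher one only in TG-3 and WT-3. *Grik4* had 120 to 157 and *Grik2* 102 to 112 normalized counts per kb. *Grik1* was the lowest in each library, with 41.1 to 59.0. Part of this order changed with the length used. With the longest protein-coding transcript, *Grik2* was at 144 to 158 normalized counts per kb and overlapped with *Grik4* at 122 to 159, and *Neto2* was above *Neto1* in each library. *Grik5*, *Grik3* and *Grik1* kept their places with either length.

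**Figure D4:**
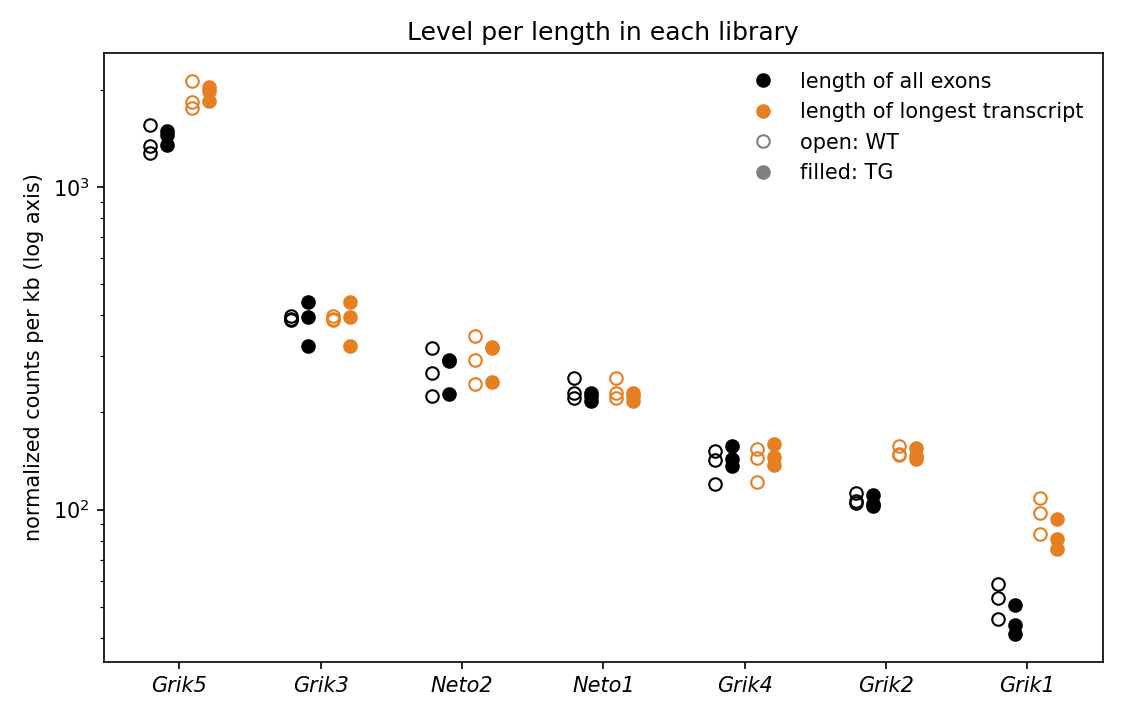
Normalized counts per kb of each gene in each library (vertical log axis), with the length of all exons in black and that of the longest protein-coding transcript in orange, open symbols for WT and filled ones for TG. *Grik5* is at 1277 or more in all 6 libraries with either length, and *Grik1* reaches at most 109.

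The make-up of the receptor message was compared by 4 ratios, 3 of them of these levels per length and 1, that of *Neto1* to *Neto2*, of normalized counts without a length. The *Grik* genes made up 20.4%, 21.9% and 19.4% of the summed level of 18 ionotropic glutamate receptor genes (the 5 *Grik* genes with the AMPA, NMDA and delta receptor genes) in TG-1 to TG-3, and 22.9%, 19.5% and 19.0% in WT-1 to WT-3. The genotypes overlapped, with a log2 difference of 0.00807 (standard error 0.10, exact two-sided permutation test, p = 1). The ratio of the higher-affinity to the lower-affinity subunits was 3.41, 2.75 and 2.73 in TG-1 to TG-3 and 3.14, 2.62 and 2.54 in WT-1 to WT-3. TG was the higher one at each replicate number by a mean log2 difference of 0.10 (standard error 0.14, exact permutation p = 0.5), which was 0.19 without WT-1 and turned to -0.00829 without TG-1. The ratio of *Neto1* to *Neto2* in normalized counts, which is no comparison of their levels per length, was 1.01, 1.06 and 1.37 in TG-1 to TG-3 and 1.14, 1.10 and 1.40 in WT-1 to WT-3. It was lower in TG at each number by a log2 difference of -0.08 (standard error 0.17, exact permutation p = 0.5), which was -0.21 without TG-3 and turned to 0.00174 without TG-1 and to 0.0255 without WT-3. The ratio of both *Neto* genes to the *Grik* genes was 0.234 ± 0.0131 in TG and 0.244 ± 0.0355 in WT (SD, n = 3, exact permutation p = 0.9). The 4 adjusted p-values were 1. With 3 libraries against 3 this exact test cannot give a p-value under 0.1, and with 3 pairs not under 0.25, which was the value that both ratios with the same direction at each number reached.

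Genes whose products bind, move, modify or edit kainate receptors were read from a list of 24, of which 23 were matched in the table and tested. Of these, 0 had a limma p below 0.05 before adjustment (background 2.01%) or after it (background 0%), with 11 lower (background 51.4%) and 12 higher in TG and a median log2 fold change of 0.02. The most abundant were *Camk2a*, a kinase of the postsynaptic density (log2 fold change 0.05, standard error 0.11), *Snap25*, a SNARE protein that binds GluK5 (-0.000463, standard error 0.09), and *Ppp3ca*, the catalytic subunit of calcineurin (-0.05, standard error 0.17). Between the libraries numbered 3 and the other 4, 6 of the 23 partners passed an adjusted p of 0.05 in limma (background 14%), among them *Ppp3ca*, with a log2 difference of 0.41 (adjusted p = 0.0124). *C1ql2*, a secreted protein that gathers kainate receptors at hippocampal mossy fibre synapses, had the log2 fold change farthest from 0 on this list, -0.40, at a mean of 13.2 normalized counts. Its WT-3 value was 23.4 and the other 5 libraries lay between 9.95 and 12.6. *C1ql2* lies outside the rule for named genes and was picked after its value was seen. Of the editing enzymes, *Adarb1*, whose product edits the Q/R codon shown above, had 6643, 6026 and 5834 normalized counts in TG-1 to TG-3 and 6770.5, 6162 and 5986 in WT-1 to WT-3. It was lower in TG at each replicate number, the groups overlapped, and the log2 fold change was -0.03 (standard error 0.08). *Adar* had 5934, 5827 and 6779 normalized counts in TG-1 to TG-3 and 5949, 5831 and 5729 in WT-1 to WT-3, so TG-3 stood above the other 5 libraries. Its log2 fold change was 0.08 (standard error 0.08), and TG minus WT was -0.00365, -0.000959 and 0.24 log2 units at numbers 1, 2 and 3.

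The expression pattern most like each gene was sought among 12345 other genes averaging 100 normalized counts or more, by the root mean square difference of log2 values centred over the 6 libraries. The differences from the nearest genes lay between 0.0140 and 0.0508 log2 units. This measure grows with the spread of a gene, so it does not rank likeness between genes. With 6 libraries and 12345 candidates a near match can arise for any gene, and no shared regulation is read from it. For *Grik1* the nearest were *Col26a1* and *Ccdc39*, for *Grik2* *Smg6* and *1110051M20Rik*, and for *Grik3* *Nudt1* and *Spon1*. For *Grik4* they were *Id3* and *Zdhhc1*, for *Grik5* *Dcaf4* and *St3gal4*, for *Neto1* *Cmah* and *Setd2*, and for *Neto2* *Tcp1* and *Isy1*. Among the 7 genes themselves, *Grik2* and *Neto1* had the smallest difference (0.0835), and *Grik4* and *Neto2* the largest (0.302). *Grik2* and *Neto1* were also the steadiest of the 7, with SDs over the 6 libraries of 0.0524 and 0.0813 log2 units. Their small difference thus shows no shared pattern.

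Marker lists of the cells that the tissue could hold were read beside the 7 genes, and in each list 0 genes had a limma adjusted p below 0.05. Of 8 oligodendrocyte markers 8 were lower in TG by the mean log2 value, 7 of them with a limma p below 0.05 before adjustment, and their sum was 74936 to 97339 normalized counts in TG and 111618 to 113801 in WT, with none at 0. The part of this in the values of the 7 genes was not tested. Of the choroid plexus markers 1 of 5 had such a p-value, with a sum of 142 to 544 in TG and 84 to 161 in WT. In the other lists it was 0 genes, and the summed levels of TG and WT overlapped for excitatory neurons (given above), upper-layer neurons (6 genes, 1 lower in TG), striatum (7 genes, 4 lower), oligodendrocyte precursors (6 genes, 5 lower), astrocytes (6 genes, 3 lower), microglia (6 genes, 4 lower) and endothelial cells (5 genes, 2 lower).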

How the data were processed

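The authors deposited a table of normalized counts per gene (a signal, not whole reads). Per the labels and the submitters' processing notes it was made with Salmon 0.9.1, R 3.6.0 and DESeq2 1.19.11 on GRCm38, and the annotation release is not given in the sources used here. Each value is an estimated read count divided by a size factor. Of the values above 0 and below 20 in a library, between 10.4% and 23.1% lay within 0.02 of a step from a whole multiple of the best step between 0.5 and 2, so whole reads were not recovered and no count model was used. Total normalized counts do not give the sequencing depth. The study lists reads per library in a supplement, and these were not used here. Of 18254 gene identifiers, 18231 had an entry in GENCODE M21 (GRCm38), from which symbols, coordinates and lengths were taken here. No column lacked a sample.

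Values were analysed as log2(value + 1) in limma 3.58.1 (R 4.3.3) for 16714 genes with a mean of at least 5, with the genotype as the only term, all 6 libraries and Benjamini-Hochberg adjustment at 0.05. A fold change on this scale understates that of low genes. The scripts were tested on simulated data. Deviations from the genotype means correlated across genes by 0.302, 0.332 and 0.616 for numbers 1, 2 and 3, and by at most 0.266 for other combinations. The 3 deviations of a genotype sum to 0. The shared shift of TG-3 and WT-3 thus by itself raises the correlations among TG-1, TG-2, WT-1 and WT-2. TG-1 correlated by 0.302 with WT-1 and 0.266 with WT-2, and TG-2 by 0.332 with WT-2 and 0.227 with WT-1. Only TG-3 and WT-3 were clearly matched, and pairing of numbers 1 and 2 was hardly told from the reverse. The labels give no shared litter or day. Blocking on the number was tried as an alternative that takes this pairing as given. Other pseudocounts (0.1 and 5), filters, scalings, variance settings, an empirical null and leaving out each library were tried as alternatives. Leaving out both libraries numbered 3, or giving them a term, was added after seeing the data.

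The genes named were the 7 genes, *Shank3*, *Adar*, *Adarb1*, the 3 most abundant partners and any with an unadjusted p-value under 0.05, the 2 nearest patterns for each gene, and marker genes at or under 3 normalized counts. *Cdhr1*, *Eomes* and *C1ql2* lie outside this rule and were named after their values were seen. The genes and lists were chosen with earlier results of these data known. Marker lists covered excitatory and inhibitory neurons, deep and upper layers, striatum, olfactory bulb, oligodendrocytes and their precursors, astrocytes, microglia, endothelium and choroid plexus. P-values measure the spread between pools of mice. Genes annotated as overlapping the 7 genes are not in the table used here.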

Additional observations from a re-analysis of the deposited data

How the results depend on the processing

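Of 16714 genes, 0 passed an adjusted p of 0.05 in limma's test (336 at an unadjusted p under 0.05). The number was 1 with upper quartile scaling, 1 with the robust variance option, 1 with the replicate block, 26 with the empirical null, 1 without the libraries numbered 3, 1 with a term for them, and 0 to 1 with each library left out (1 without WT-3); the cause was not tested. Of the 7 genes and of the 23 partners, 0 passed under every setting run. With the empirical null, 1 of the 7 genes, *Grik1*, had an unadjusted p under 0.05 (0.0494, adjusted p = 0.685, the smallest of the 7 genes over the settings); under the other settings it was 0 of 7. Leaving out 1 library at a time gave log2 fold changes of -0.31 to -0.13 for *Grik1*, -0.0598 to 0.00386 for *Grik2*, -0.14 to 0.0870 for *Grik3*, -0.0172 to 0.15 for *Grik4*, -0.0157 to 0.13 for *Grik5*, -0.12 to -0.02 for *Neto1* and -0.11 to 0.13 for *Neto2*. The direction turned for *Grik3* without TG-1 (0.0870), *Neto2* without TG-1, TG-2 or WT-3 (-0.05, -0.05 and -0.11), *Grik4* without WT-2 (-0.0172), and *Grik2* (0.00386) and *Grik5* (-0.0157) without WT-3. The log2 differences of the ratios were -0.0434 to 0.0911 for the kainate share, -0.00829 to 0.19 for higher against lower affinity, -0.21 to 0.0255 for *Neto1* to *Neto2* and -0.12 to 0.0665 for *Neto* to *Grik*, so the direction of each rests on single libraries. The replicate block changed no other call. Precision is limited by the 3 libraries a genotype, and the confidence intervals above hold the differences that these data do not exclude.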
